A study of Homo sapiens and Mus musculus with 10 samples.

Results

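The genes described here are 10 targets of ATF4, the transcription factor of the integrated stress response. They act in amino acid synthesis and transport, mitochondrial one-carbon metabolism or glutathione breakdown: ASNS, PHGDH, PSAT1, PSPH, SHMT2, MTHFD2, SLC7A11, SLC7A5, SLC3A2 and CHAC1. They were taken by symbol from the human expression table, 10 of 63140 gene rows, and all 10 were among the 14399 genes with enough signal to test. The libraries came from A375, an established human melanoma cell line. One group was left without peptide for 24 h (Ctrl, n = 3) and the other was exposed to the peptide LL-37 for the same time, at a concentration of 80 µg/mL (n = 3), each as biological triplicates per the series text. LL-37 is a host defence peptide that proteases release from the cathelicidin precursor, the CAMP product. Mouse skin libraries of the same series were not analysed here. Expression is given in TPM, a share of a library's transcripts that is scaled by transcript length and sums to the same total in each library. The sequencing depth is therefore unknown.

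ATF4 is translated when kinases that sense amino acid shortage, endoplasmic reticulum stress, haem loss or double-stranded RNA phosphorylate the initiation factor eIF2. With partners of the C/EBP family it binds composite C/EBP-ATF response elements and switches on amino acid transporters, amino acid synthesis enzymes and tRNA synthetases. Melanoma cells and other tumour cells use this programme to supply serine, asparagine, one-carbon units and cystine.

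The starting material is described as cultured keratinocytes in the labels' protocol, so the cell identity was checked against markers. SOX10, a neural crest and melanoma transcription factor, was at 147 to 387 TPM over the 6 libraries. The keratinocyte genes KRT1 and DSG3 were listed at 0 in every library and KRT5 reached 0.14 TPM in 1 library. KRT14 was at 1.15 to 1.98 TPM and DSC3 at 0.92 to 2.35 TPM over the 6 libraries. Keratinocyte markers summed to 28.8 to 29.96 TPM in Ctrl and 21.3 to 26.8 TPM with LL-37, most of it KRT10. The pigment genes TYR and MLANA were listed at 0 in every library, apart from MLANA at 0.02 TPM in Ctrl replicate 3. PMEL and DCT reached at most 1.25 and 0.74 TPM, and MITF was at 1.75 to 5.45 TPM. The 10 melanoma and melanocyte markers summed to 606.4 to 652.8 TPM in Ctrl and 356.7 to 790.8 TPM with LL-37. Fibroblast, leukocyte and endothelial markers summed to at most 8.02, 42.8 and 3.27 TPM in any library. One treated library, LL-37 replicate 3, differed from the remaining 5. Its genome-wide correlation with them was 0.949 to 0.963, while theirs with each other was 0.985 to 0.992. In it 12991 genes reached 1 TPM, compared with 14304 to 14555 elsewhere, and the top 50 genes held 39.8% of all TPM, compared with 29.8% to 31.1%. SOX10 was also at its lowest there and above every Ctrl library in replicates 1 and 2, and the part of these differences in the results was not tested. The changes of the members and of the pathway genes named with them are therefore given with and without replicate 3.

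Promoters were searched for the element that ATF4 binds, since the genes were selected as its targets. RefSeq promoter windows (GRCh38.p14, from 250 bases before to 50 bases after a gene's start) covered 7 of the 10 genes with 10 windows. No window was available for SLC7A11, PSPH and SHMT2, which were therefore not searched. The core TGATGNAA of the C/EBP-ATF element, on either strand, lay in 3 of these windows, those of ASNS, CHAC1 and SLC3A2. It was found in 3.62% of all 35116 windows. The ASNS match began at position -68 and the CHAC1 match, on the reverse strand, at position -209 from the start. The SLC3A2 match began at position 38, after the start. The 250 bases before the starts of ASNS (chr7:97872409-97872658, minus strand) and CHAC1 (chr15:40953221-40953470, plus strand) are printed 5′ to 3′ on the gene's strand, with the matched core in capitals. These were the matches of this core upstream of a RefSeq start among the 7 genes with a window. Both lie inside the GENCODE bounds of ASNS and CHAC1 given below, which begin further upstream.
ASNS: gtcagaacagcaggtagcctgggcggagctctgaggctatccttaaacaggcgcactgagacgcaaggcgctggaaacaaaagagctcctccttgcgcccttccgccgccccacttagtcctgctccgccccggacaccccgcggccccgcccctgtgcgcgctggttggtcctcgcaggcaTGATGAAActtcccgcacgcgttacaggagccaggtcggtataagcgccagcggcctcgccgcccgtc
CHAC1: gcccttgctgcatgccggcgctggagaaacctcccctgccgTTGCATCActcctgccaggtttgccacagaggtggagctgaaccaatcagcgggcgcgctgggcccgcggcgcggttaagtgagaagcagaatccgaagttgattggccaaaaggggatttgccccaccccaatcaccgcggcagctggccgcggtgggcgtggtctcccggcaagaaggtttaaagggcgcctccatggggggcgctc
The core TGACNNNGC of the antioxidant response element, bound by NRF2, lay in 3 member windows, those of MTHFD2, SLC3A2 and SLC7A5, and in 13.3% of all windows. The matches to the different cores did not overlap. A match describes the letters in the window and no binding was measured.

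Treated and untreated cultures were compared for the transcriptomic effect of the peptide. In LL-37 replicate 1 all 10 genes were above every Ctrl library, at 1.14 to 1.33 times the Ctrl mean, and in LL-37 replicate 2 this held for 9, at 1.12 to 1.30 times, while SLC7A11 was at 1.03 times and within the Ctrl range. Among all genes tested, 30.8% were above every Ctrl library and 21.6% below in replicate 1, and 19.2% above and 29.4% below in replicate 2. No member was below every Ctrl library in either. LL-37 replicate 3 split the set: PSPH, ASNS, PSAT1 and CHAC1 were above every Ctrl library, MTHFD2 was within the Ctrl range, and PHGDH, SHMT2, SLC3A2, SLC7A5 and SLC7A11 were below it. In that library 12.2% of all genes tested were above every Ctrl library and 76.8% were below.

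No member passed the test. In limma on log2(TPM + 1), with p-values adjusted over all 14399 genes and a threshold of 0.05, 0 of 10 members and 0 of all genes (0.0%) passed with all libraries. The adjusted p of the members was 0.739 to 0.943. At an unadjusted p under 0.05 there were 3 members, all higher with LL-37 (ASNS, PSAT1 and PSPH), and 363 genes in all (2.52%), of which 95 were higher (0.66%) and 268 lower (1.86%). Without LL-37 replicate 3, 17 genes passed (0.118%), 7 of them higher (0.0486%), and none of the 10 members was among them, with adjusted p of 0.162 to 0.851. In that fit 9 members had an unadjusted p under 0.05, all higher with LL-37, against 1298 of all genes (9.01%), 708 of them higher (4.92%) and 590 lower (4.1%). In a bulk culture, fewer cells that express a gene and less RNA per cell cannot be told apart.

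Ctrl and LL-37 values were fully apart for 4 of the 10 genes over the 6 libraries, all higher with LL-37. Of all genes tested 12.4% were apart, 2.13% higher and 10.3% lower. Over the 5 libraries without replicate 3, 9 of the 10 genes were apart, all higher, beside 25.1% of all genes (12.3% higher and 12.9% lower). The fitted change was above 0 for 7 members over the 6 libraries and for 10 over the 5, beside 19.7% and 48.7% of all genes. The members' median log2 change was 0.18 over the 6 libraries and 0.25 over the 5, where the median of all genes was -0.20 and 0.00. Changes below are log2 differences on the log2(TPM + 1) scale, and the value relative to the all-gene median follows where the distinction matters. The plot of TPM in each library shows the levels behind these counts.

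**Figure D1:**
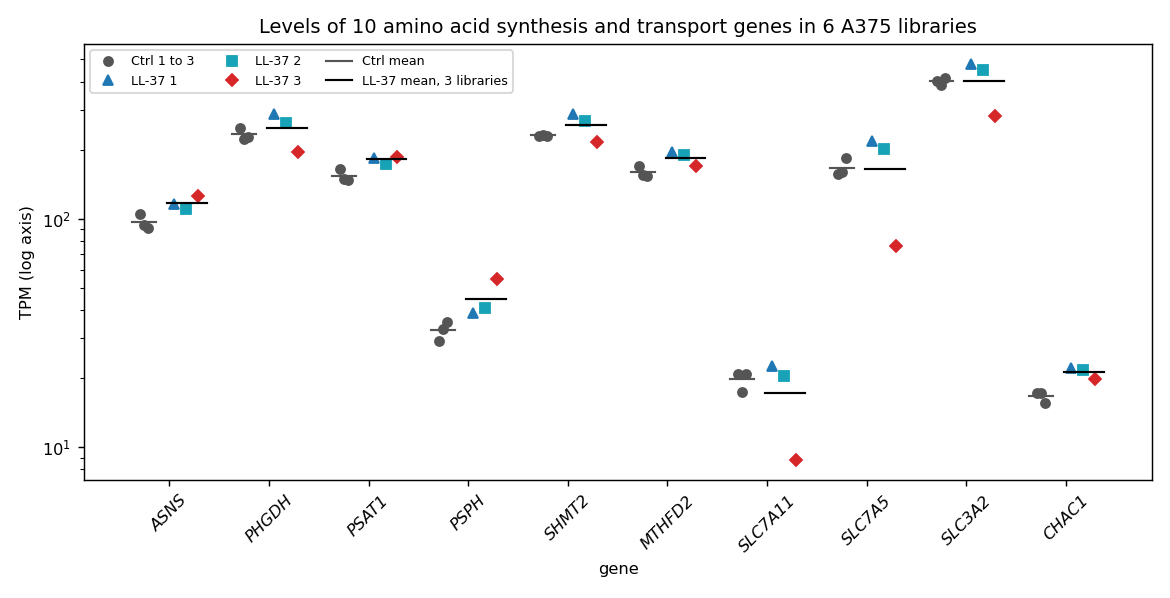
TPM of the 10 genes (log axis) in the 3 Ctrl libraries (grey circles) and in LL-37 replicates 1 (triangles), 2 (squares) and 3 (diamonds). Bars are group means over 3 libraries. Replicates 1 and 2 lie above the Ctrl points for 9 of 10 genes, while replicate 3 lies above them for PSPH, ASNS, PSAT1 and CHAC1 and far below them for SLC7A5 and SLC7A11.

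The levels per length in Ctrl spanned from CHAC1 to SLC3A2. SLC3A2 was highest at 401.5 ± 14.1 TPM (SD, n = 3), the 98.2 percentile of genes tested. PHGDH (234.5 ± 13.9 TPM) and SHMT2 (232.5 ± 1.28 TPM) followed and did not differ beyond their spread. SLC7A5 (168 ± 15.0 TPM), MTHFD2 (160.1 ± 9.07 TPM) and PSAT1 (154 ± 9.74 TPM) formed another step whose neighbours overlapped. ASNS was at 97.0 ± 7.49 TPM and PSPH at 32.5 ± 3.10 TPM. SLC7A11 (19.8 ± 2.00 TPM) and CHAC1 (16.7 ± 0.993 TPM) were lowest, and their Ctrl ranges did not overlap. The transporter heavy chain was thus the most abundant and the cystine carrier that pairs with it among the least.

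PHGDH, PSAT1 and PSPH carry out the successive steps from 3-phosphoglycerate to serine. PHGDH (ENSG00000092621, chromosome 1, 119648411 to 119744226, plus strand, GRCh38) codes for the entry enzyme. PHGDH was at 250.4, 224 and 229 TPM in Ctrl and at 288, 264 and 197 TPM in LL-37 replicates 1, 2 and 3. Replicates 1 and 2 were above all Ctrl libraries and replicate 3 below all of them. The log2 change was 0.07 ± 0.16 (SE), with a 95% interval of -0.31 to 0.45, and 0.23 ± 0.07 without replicate 3 (limma adjusted p = 0.827 and 0.327). Leaving out replicate 1 instead turned it to -0.04.

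PSAT1 (ENSG00000135069, chromosome 9, 78297143 to 78330093, plus strand) codes for the transaminase of the pathway. PSAT1 was at 165, 149 and 148 TPM in Ctrl and at 186, 174 and 187 TPM with LL-37. The groups did not overlap, and replicate 3 was here the highest library. The log2 change was 0.24 ± 0.10 (SE) and 0.22 ± 0.07 without replicate 3 (limma adjusted p = 0.739 and 0.348), so this value hardly moved with that library. Because PSAT1 and PHGDH parted in replicate 3, their TPM ratio was 0.66, 0.664 and 0.646 in Ctrl and 0.646, 0.66 and 0.951 with LL-37. The first 5 values lay together and the last stood alone.

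PSPH (ENSG00000146733, chromosome 7, 56011051 to 56051604, minus strand) codes for the phosphatase that releases serine. PSPH was at 29.2, 33.0 and 35.3 TPM in Ctrl and at 38.7, 40.9 and 54.3 TPM with LL-37. All LL-37 libraries were above all Ctrl libraries, with replicate 3 at 1.67 times the Ctrl mean. PSPH had the largest change of the 10 genes with all libraries, 0.43 ± 0.17 (SE, 95% interval 0.02 to 0.85, limma adjusted p = 0.739), and 0.29 ± 0.09 without replicate 3 (adjusted p = 0.369). Its change lay at the 98.7 percentile of all genes tested with all libraries and at the 94.4 percentile without replicate 3.

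ASNS (ENSG00000070669, chromosome 7, 97852118 to 97872542, minus strand) codes for asparagine synthetase, which transfers the amide nitrogen of glutamine to aspartate and is a textbook ATF4 target. ASNS was at 105, 94.5 and 91.1 TPM in Ctrl and at 116, 111 and 127 TPM with LL-37. The groups did not overlap, although Ctrl replicate 1 and LL-37 replicate 2 were close. The log2 change was 0.28 ± 0.11 (SE) and 0.23 ± 0.08 without replicate 3 (limma adjusted p = 0.739 and 0.388). All 4 serine and asparagine genes were thus above 0 in both fits, at 0.07 to 0.43 and 0.22 to 0.29.

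SHMT2 and MTHFD2 act in mitochondria, where SHMT2 splits serine to glycine and a folate-bound one-carbon unit and MTHFD2 oxidises that unit. SHMT2 (ENSG00000182199, chromosome 12, 57229327 to 57234935, plus strand) was at 232, 234 and 232 TPM in Ctrl, the tightest of the 10 genes, and at 289.6, 269 and 218 TPM with LL-37. Its replicates 1 and 2 were 1.25 and 1.16 times the Ctrl mean, and replicate 3 was 0.939 times. The log2 change was 0.15 ± 0.13 (SE) and 0.26 ± 0.06 without replicate 3 (limma adjusted p = 0.739 and 0.162). The last value was the smallest adjusted p of any member in either fit.

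MTHFD2 (ENSG00000065911, chromosome 2, 74198562 to 74217565, plus strand) was at 170.5, 156 and 154 TPM in Ctrl and at 196, 191 and 169.9 TPM with LL-37. Replicate 3 lay just under the highest Ctrl library, so that the groups overlapped by that library alone. The log2 change was 0.21 ± 0.11 (SE) and 0.27 ± 0.06 without replicate 3 (limma adjusted p = 0.739 and 0.199). The MTHFD2 to SHMT2 TPM ratio was 0.736, 0.666 and 0.664 in Ctrl and 0.677, 0.709 and 0.778 with LL-37, with overlapping groups.

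SLC3A2, SLC7A5 and SLC7A11 form heteromeric transporters at the plasma membrane. SLC3A2 codes for the heavy chain that carries the others to the surface, SLC7A5 for the light chain that brings in large neutral amino acids such as leucine, and SLC7A11 for the light chain that exchanges glutamate for cystine. SLC3A2 (ENSG00000168003, chromosome 11, 62856102 to 62888875, plus strand) was at 401, 388 and 416 TPM in Ctrl and at 478, 449 and 281 TPM with LL-37. SLC7A5 (ENSG00000103257, chromosome 16, 87830023 to 87869488, minus strand) was at 158, 160.1 and 185 TPM and at 220.0, 202 and 75.8 TPM. SLC7A11 (ENSG00000151012, chromosome 4, 138164097 to 138242349, minus strand) was at 21.0, 17.5 and 21.0 TPM and at 22.6, 20.5 and 8.76 TPM. For SLC3A2 and SLC7A5 replicates 1 and 2 were above every Ctrl library, and for SLC7A11 replicate 2 was within the Ctrl range.

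In LL-37 replicate 3 the transporters were at 0.701 (SLC3A2), 0.452 (SLC7A5) and 0.442 (SLC7A11) times their Ctrl means, and this library set the sign of each change. With all libraries the log2 changes were -0.03 ± 0.20, -0.16 ± 0.39 and -0.29 ± 0.35 (SE, limma adjusted p = 0.943, 0.851 and 0.744). The intervals were wide, from -1.09 to 0.78 for SLC7A5 and from -1.11 to 0.54 for SLC7A11. Without replicate 3 the changes were 0.21 ± 0.06, 0.33 ± 0.08 and 0.12 ± 0.11 (adjusted p = 0.277, 0.22 and 0.851). SLC7A11 was the member with the smallest change in that fit, with an interval of -0.13 to 0.36. Relative to the all-gene median the changes with all libraries were 0.17, 0.05 and -0.08. With median-of-ratios scaling of all libraries, which sets that median to 0.00, SLC3A2 was at 0.21 and SLC7A5 at 0.09, so their sign also turned with the scaling.

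The balance of light to heavy chain was compared within libraries, where the scaling of a library cancels. A trend with transcript length, described below for replicate 3, does not cancel. The longest transcripts were 2222 bases for SLC3A2, 4537 for SLC7A5 and 9645 for SLC7A11. For the other ratios they were 2188 (PSAT1) and 3180 (PHGDH), and 4456 (MTHFD2) and 3416 (SHMT2). The part of length in the 4 ratios was not tested. The SLC7A5 to SLC3A2 TPM ratio was 0.395, 0.413 and 0.445 in Ctrl and 0.46, 0.45 and 0.269 with LL-37. Replicates 1 and 2 were just above the Ctrl range and replicate 3 well below it. The SLC7A11 to SLC3A2 ratio was 0.0524, 0.0452 and 0.0504 in Ctrl and 0.0472, 0.0456 and 0.0311 with LL-37. Over the 4 ratios compared in all, the log2 differences were -0.13 (SLC7A5 to SLC3A2), -0.28 (SLC7A11 to SLC3A2), 0.17 (PSAT1 to PHGDH) and 0.07 (MTHFD2 to SHMT2). None passed a two-sided exact permutation test (p = 1.0, 0.3, 0.7 and 0.5, adjusted over the 4 ratios 1.0, 0.933, 0.933 and 0.933), where 3 against 3 libraries cannot go below 0.1. Without replicate 3 the differences were 0.13, -0.09, -0.01 and 0.01 (exact permutation p = 0.2, 0.4, 0.7 and 0.9, adjusted 0.8, 0.8, 0.9 and 0.9), and the smallest p that 3 against 2 libraries allow is also 0.1.

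CHAC1 (ENSG00000128965, chromosome 15, 40952962 to 40956519, plus strand) codes for an enzyme that breaks down glutathione in the cytosol, downstream of ATF4, ATF3 and CHOP. CHAC1 was at 17.3, 17.3 and 15.6 TPM in Ctrl and at 22.3, 21.8 and 19.9 TPM with LL-37. The groups did not overlap, and replicate 3 was above every Ctrl library, at 1.19 times the Ctrl mean. CHAC1 had the largest change of the 10 genes without replicate 3, at 0.38 ± 0.09 (SE, limma adjusted p = 0.189), and 0.33 ± 0.14 with all libraries (adjusted p = 0.739). The plot of changes with their intervals sets all 10 genes beside the all-gene medians.

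**Figure D2:**
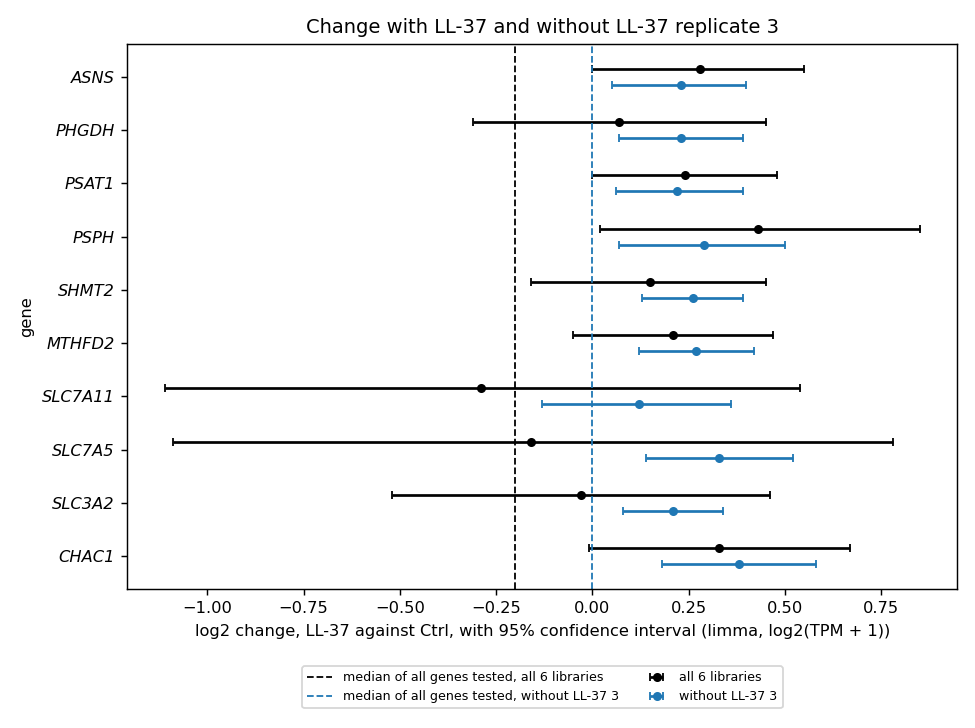
Log2 change with LL-37 for each gene (points) with its 95% confidence interval (bars, limma), from all 6 libraries (black) and without LL-37 replicate 3 (blue). Dashed lines are the medians of all genes tested, -0.20 and 0.00. Intervals narrow without replicate 3, and the transporters move from below 0 to above it.

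The place of the members in LL-37 replicate 3 varied with transcript length. The longest GENCODE 29 transcript of the 10 genes ran from 1849 bases (CHAC1) to 9645 bases (SLC7A11). In replicate 3 the median log2 difference of all genes from the Ctrl mean was -0.12 for transcripts under 2000 bases (3305 genes), -0.52 from 2000 to 4000 bases (5037 genes), -0.86 from 4000 to 6000 bases (3161 genes) and -1.1 above (2384 genes). In replicates 1 and 2 these medians stayed between -0.05 and 0.04. Over the 10 members the Spearman correlation of this difference with length was -0.71 in replicate 3, -0.38 in replicate 2 and -0.05 in replicate 1. Over 13887 genes it was -0.56, -0.12 and 0.06. These are descriptions across genes of the same library, and the longest annotated transcript need not be the one expressed.

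Set against genes of their own length class in replicate 3, 7 members stood higher. PSPH was 1.25 above its class median, MTHFD2 0.95, ASNS 0.91 and PSAT1 0.81, followed by SHMT2 (0.43), CHAC1 (0.36) and PHGDH (0.27). SLC3A2 and SLC7A11 were each 0.01 above it, while SLC7A5 was at -0.27, the 29.6 percentile of its class. With each library's length trend removed, a setting chosen after seeing the data, all 10 changes were above 0, and none passed (limma, smallest adjusted p of any member 0.649). PSPH was then at 0.54, MTHFD2 at 0.48, and SLC7A5, SLC7A11 and SLC3A2 at 0.12, 0.09 and 0.08. Depth and RNA quality were not given, and their part in the values of replicate 3 was not tested.

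**Figure D3:**
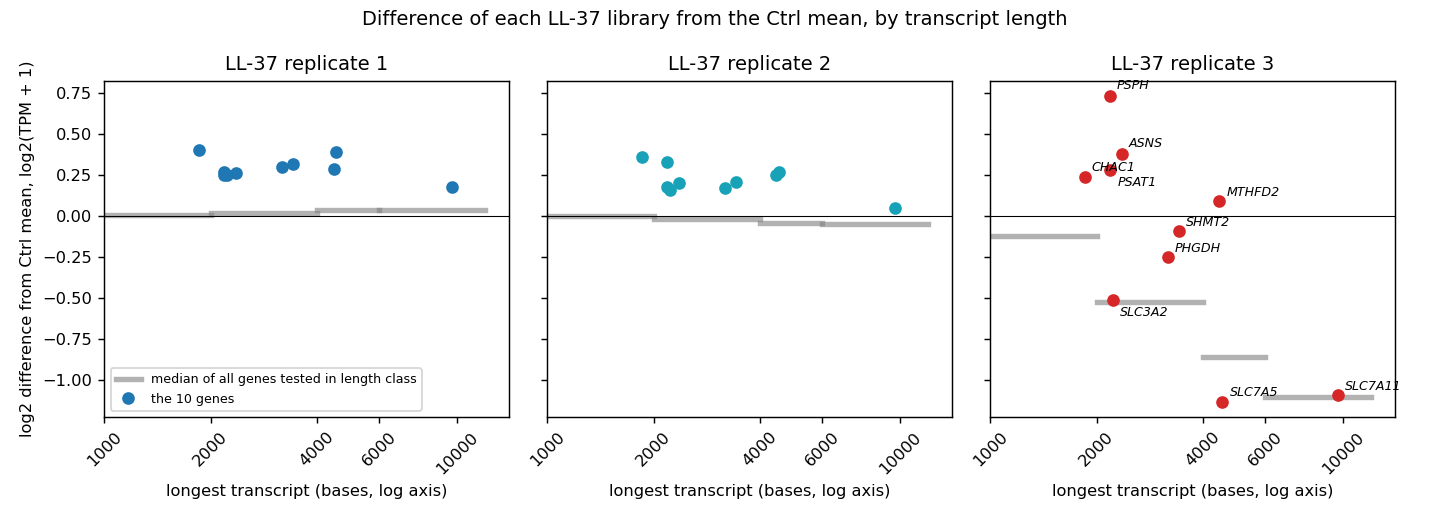
Log2 difference of each LL-37 library from the Ctrl mean against the length of the longest transcript (log axis), for the 10 genes (points) and as the median of all genes tested in each length class (grey bars). In replicates 1 and 2 the points lie above the bars at every length. In replicate 3 the bars descend from -0.12 to -1.1, and the points spread from PSPH above 0 to SLC7A5 below its bar.

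The other genes of the pathway were taken from lists. Of 18 regulators of the integrated stress response none passed in either fit, and 4 had groups that did not overlap with all libraries, all higher (ATF4, ATF3, DDIT4 and EIF4EBP1), beside 2.13% of all genes. Without replicate 3 this held for 10, all higher, beside 12.3% of all genes. ATF4 itself was at 645, 644 and 633 TPM in Ctrl and at 744, 722 and 764 TPM with LL-37, a log2 change of 0.21 and of 0.19 without replicate 3 (limma adjusted p = 0.739 and 0.22). Its mRNA level does not report its translation, which is where ATF4 is mainly controlled. ATF3, a partner factor, was at 6.60, 5.52 and 4.96 TPM and at 7.92, 7.21 and 13.1 TPM, where replicate 3 stood far above the rest (log2 change 0.60, and 0.36 without it). DDIT4, an inhibitor of mTORC1, was at 164.5, 148 and 157 TPM and at 186, 183 and 192 TPM (0.25 and 0.24). EIF4EBP1, a translation repressor, was at 241 ± 4.70 and 269 ± 10.4 TPM (SD, n = 3), with changes of 0.16 and 0.13.

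Further amino acid and one-carbon enzymes were mixed. Of 21 listed, 20 were tested, none passed, and the median change was -0.17 with all libraries and 0.06 without replicate 3. With all libraries 2 were apart and higher and 1 lower, beside 2.13% and 10.3% of all genes. Without replicate 3 these counts were 7 and 1, beside 12.3% and 12.9% of all genes. The groups were apart for CTH, which makes cysteine from cystathionine, at 14.7, 12.1 and 13.8 TPM in Ctrl and 17.3, 15.4 and 15.4 TPM with LL-37 (log2 change 0.23, and 0.26 without replicate 3). They were also apart for SHMT1, the cytosolic counterpart of SHMT2, but on the lower side, at 34.4, 36.5 and 35.8 TPM and 33.0, 30.4 and 22.4 TPM (-0.32 and -0.16). GOT1, an aspartate transaminase named after its values were seen, was the other gene apart and higher, at 33.8, 34.5 and 34.6 TPM and 37.3, 37.2 and 43.6 TPM (0.19 and 0.12). GOT2, the mitochondrial aspartate transaminase and one of the most abundant of the list, was at 91.3 ± 3.74 TPM in Ctrl and at 77.8 ± 21.0 TPM with LL-37 (SD, n = 3). Without replicate 3 GOT2 was at 89.9 TPM with LL-37, and its change moved from -0.27 to -0.02.

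Other amino acid transporters were low in replicate 3. Of 17 listed, 13 were tested and none passed, and all 13 were below every Ctrl library in replicate 3, beside 76.8% of all genes. In that library their median log2 difference was -1.26, where all genes above 6000 bases had a median of -1.1. Several of these transporters have long transcripts, such as SLC38A1 (8066 bases), SLC7A2 (7638) and SLC7A1 (7347), while SLC43A1 (2598) does not. The part of length in their low values was not tested. The median change was -0.44 with all libraries and 0.05 without replicate 3, where 5 were apart and higher and 1 lower, beside 12.3% and 12.9% of all genes. With all libraries 0 were apart and higher and 1 lower, beside 2.13% and 10.3% of all genes. SLC1A5, a glutamine carrier, was at 178, 168 and 181 TPM in Ctrl and at 218, 199 and 109 TPM with LL-37, and its change turned from -0.06 to 0.25 without replicate 3. SLC38A2, another glutamine carrier and ATF4 target, was at 235, 195 and 212 TPM and at 217, 193 and 115 TPM, so that replicates 1 and 2 did not lie above Ctrl (-0.34 and -0.06). SLC38A9, a lysosomal arginine sensor, was apart on the lower side, at 25.1 ± 0.651 and 22.9 ± 1.64 TPM (-0.13 and -0.07).

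Cytosolic aminoacyl-tRNA synthetases were listed as those known to respond to ATF4 and the others. Of the 12 responsive ones none passed. Their groups were apart and higher for 1 with all libraries (SARS1) and for 6 without replicate 3, beside 2.13% and 12.3% of all genes, and the median change was -0.08 and 0.11. Of the 8 others none passed either, 2 were apart and lower in both fits (FARSB among them), beside 10.3% and 12.9% of all genes, none was apart and higher, and the median change was -0.21 and -0.02. The difference between these lists was not tested. SARS1, which charges serine onto tRNA, was at 243, 229 and 226 TPM in Ctrl and at 256, 248 and 252 TPM with LL-37 (0.11 in both fits). WARS1, the most abundant responsive one, was at 356, 320.4 and 351 TPM and at 372, 362 and 206 TPM. Its replicates 1 and 2 were above every Ctrl library, and its change turned from -0.18 to 0.10 without replicate 3. Among the others QARS1 was at 273 ± 14.2 and 281 ± 6.68 TPM (0.04 and 0.06) and FARSB at 7.23 ± 0.243 and 6.31 ± 0.752 TPM (-0.18 and -0.09). FARSA was at 274 ± 7.59 and 262 ± 30.9 TPM, or 279 TPM with LL-37 without replicate 3, and its change turned from -0.07 to 0.03. The ATF4 core sequence lay in 7 of 15 promoter windows of the responsive synthetases, a list chosen as known to respond, beside 3.62% of all windows. It lay in 0 of 6 windows of the other synthetases, which are too few to tell from that share. The further pathway lists ranged from 0.0% of windows (glutathione and NRF2 genes) to 21.7% (other amino acid and one-carbon enzymes).

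Glutathione and NRF2 genes were listed because SLC7A11 is also an NRF2 target. They had a median change of -0.08 with all libraries and 0.08 without replicate 3 (13 of 14 tested, none passed). Of these 1 was apart and higher with all libraries, and 5 were apart and higher and 1 lower without replicate 3. Over all genes 12.9% were apart and lower without replicate 3. NQO1, a quinone reductase and NRF2 target, was apart and higher, at 513, 481 and 494 TPM in Ctrl and at 596, 567 and 564 TPM with LL-37 (0.21 and 0.23). GPX4, the peroxidase that detoxifies lipid peroxides with glutathione, was at 241 ± 23.5 and 262 ± 9.35 TPM (0.13 and 0.10). Endoplasmic reticulum stress genes were listed as outside ATF4. The ATF4 core nevertheless lay in 1 of their 12 promoter windows (HERPUD1), beside 3.62% of all windows. These stress genes had medians of -0.09 and 0.08 (10 of 10 tested, none passed). Of these 1 was apart and higher with all libraries and 5 without replicate 3. For both lists the shares over all genes were 2.13% and 12.3% higher. The chaperone gene CALR was at 2237, 2151 and 2145 TPM in Ctrl and at 2366, 2303 and 2362 TPM with LL-37, apart and higher (0.11 and 0.10). HSP90B1, another chaperone gene, was at 1701 ± 122 and 1487 ± 449 TPM. Without replicate 3 it was at 1746 TPM with LL-37, and its change turned from -0.24 to 0.04. The plot of list changes shows the members beside these lists.

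**Figure D4:**
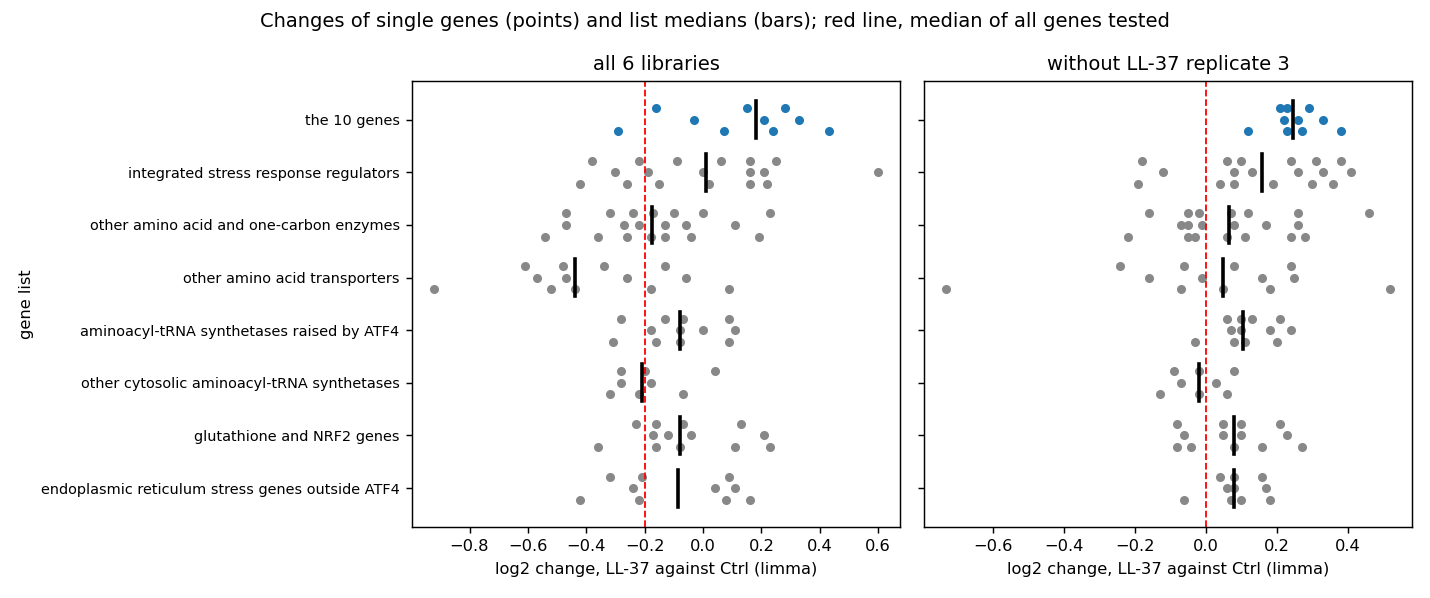
Log2 change with LL-37 of single genes (points) in the 10 members (blue) and in each list of pathway genes (grey), with list medians (black bars) and the median of all genes tested (red dashed line), from all 6 libraries (left) and without LL-37 replicate 3 (right). Without replicate 3 all 10 members lie right of the red line, while the responsive synthetases have a median of 0.11 and the other synthetases of -0.02.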

How the data were processed

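Per the labels' protocols, A375 RNA was turned into libraries with a strand-specific mRNA kit. The authors deposited gene-level TPM, scaled by transcript length and library. The build GRCh38 is named in the submitters' processing notes, while for the aligner and the quantifier no source used here gives a name. TPM keep no depth, so no counting interval can be given. A gene name table matched 62541 of 63140 identifiers.

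The test took every gene that reached 1 TPM in 3 or more libraries and was run on log2(TPM + 1) with limma 3.58.1 (R 4.3.3, intensity trend, two-sided), and Benjamini-Hochberg adjustment ran over all 14399 genes. The test was checked on simulated data with independent noise for each gene and planted changes larger than those of the members. The simulation held no library-wide shift and no length trend, so the check does not cover these features of the data. The members, lists and alternatives were chosen with earlier results of these data known. Named beside the 10 members were the 2 most abundant genes of each list and up to 2 with the largest change among those whose groups were apart, and the 3 genes most alike in pattern over 6 and over 5 libraries. Some genes that the rule selects are not reported here. GENCODE 29 gave positions and transcript lengths (96.4% of tested genes), and RefSeq the promoters. Of 19 annotated pseudogene copies of the members, 12 were listed at 0 and the highest value was 2.47 TPM. How reads were shared among copies is not known.

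Alternatives were other pseudocounts, filters, scalings, a replicate block, no intensity trend, TPM without mitochondrially encoded genes, libraries left out and, chosen after seeing the data, removal of length trends.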

Additional observations from a re-analysis of the deposited data

How the results depend on the processing

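No member passed under any of the 20 alternatives. Over the fits that each omit 1 library, 0 to 17 genes passed, against 0 with all, and the 17 came without LL-37 replicate 3. Omitting it and changing another setting gave 9 with median-of-ratios scaling, 9 with quantile normalization, 20 with a pseudocount of 0.1 and 13 with length trends removed. The count was 0 in every other setting. The members' median log2 change of 0.18 was 0.42 with median-of-ratios scaling, which moved the all-gene median from -0.20 to 0.00, and 0.35 with length trends removed. Omitting 1 library at a time gave 0.11 to 0.25. With the replicate block 0 genes and 0 members passed, and no member had an unadjusted p under 0.05, against 3 without it. The deviations of same-numbered Ctrl and LL-37 libraries from their group means correlated at 0.091, -0.196 and -0.168, and not every library correlated best with its own number, so the numbers were not taken as pairs. ASNS, PSAT1, PSPH, SHMT2, MTHFD2 and CHAC1 kept their direction in all 20 alternatives. PHGDH turned to -0.04 without LL-37 replicate 1 (range -0.04 to 0.23 over the libraries left out). The ranges were -0.52 to 0.12 for SLC7A11, -0.43 to 0.33 for SLC7A5 and -0.17 to 0.21 for SLC3A2. Without LL-37 replicate 3 SLC7A11 turned to 0.12 (also with median-of-ratios scaling, a pseudocount of 0.1 or length trends removed; 0.10 with quantile normalization). SLC7A5 turned to 0.33 in these 5 fits, to 0.09 with median-of-ratios scaling of all libraries and to 0.12 with length trends removed. SLC3A2 turned to 0.21 (0.22 with quantile normalization and 0.20 with length trends removed as well), to 0.21 with median-of-ratios scaling and to 0.08 with length trends removed, where SLC7A11 was at 0.09. The log2 SLC7A5 to SLC3A2 ratio turned from -0.13 to 0.13, and PSAT1 to PHGDH from 0.17 to -0.01, without LL-37 replicate 3. Leaving out each library they ranged from -0.26 to 0.13 and from -0.01 to 0.27. The cause of these turns was not tested.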

Other observations

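Some stress response genes outside the rule for named genes had smaller adjusted p-values than any member without LL-37 replicate 3, and are given as values chosen after they were seen. TRIB3, a pseudokinase that restrains ATF4, was at 113, 120.3 and 119 TPM in Ctrl and at 158, 148 and 109 TPM with LL-37. CEBPB, a dimer partner of ATF4, was at 71.1, 71.8 and 71.9 TPM and at 92.0, 89.1 and 63.1 TPM. SLC1A4, a carrier of serine and alanine, was at 46.5, 41.8 and 47.6 TPM and at 69.5, 61.0 and 26.1 TPM. In each of them replicates 1 and 2 were above every Ctrl library and replicate 3 below. Their log2 changes without replicate 3 were 0.38, 0.33 and 0.52 (limma adjusted p = 0.0911 each), against 0.22, 0.16 and 0.09 with all libraries (adjusted p = 0.739, 0.739 and 0.907). CBS, which starts cysteine synthesis from homocysteine, was likewise at 18.2, 16.9 and 19.2 TPM and at 26.3, 24.3 and 8.26 TPM.

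The genes whose pattern was most like the mean of the members' standardised profiles over the 6 libraries were FST (r = 0.991), LSM6 (0.983) and CNPY2 (0.98). FST, the gene of the activin-binding protein follistatin, was at 118, 109 and 108 TPM in Ctrl and at 166, 145 and 117 TPM with LL-37. Over the 5 libraries without LL-37 replicate 3 they were COBL (0.999), NQO1 (0.998) and EML2 (0.997). The points share their libraries and scaling, and the best of 14399 genes over so few libraries is a description only. Among the members themselves, correlation with their mean over the 6 libraries ran from 0.121 (PSPH) to 0.955 (MTHFD2), and over the 5 libraries from 0.697 (SLC7A11) to 0.97 (SHMT2).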
